A study of Drosophila melanogaster with 2 samples.

Results

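The Ras and MAPK cascade genes are 10 protein-coding genes of Drosophila melanogaster, of 13968 annotated, that carry a signal from receptor tyrosine kinases to the MAP kinase: drk, csw, Sos, RasGAP1, Ras85D, Raf, ksr, cnk, Dsor1 and rl. They were chosen by name, with earlier results of these data known. A ChIP-seq peak was given to a gene when its summit lay inside the gene body. It was also given when the gene had the nearest protein-coding transcription start site (TSS). By that rule 8 of the 1725 peaks called from both replicates belonged to 3 of the 10 genes. Raf had 6 of these peaks, RasGAP1 had 1 and drk had 1, whereas Sos, Ras85D, csw, ksr, cnk, Dsor1 and rl had none.

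Binding was mapped by chromatin immunoprecipitation and sequencing (ChIP-seq) of the product of aop (anterior open, also called Yan), an ETS-domain transcriptional repressor. The embryos came from transgenic flies that express an aop-eGFP fusion (eGFP is a green fluorescent tag), were collected at 0 to 24 h and were used whole, so that all tissues and all embryonic stages were pooled. The tagged protein was precipitated with an antibody against GFP, and the 2 biological replicates formed 1 group. A control immunoprecipitation was not analysed here, which leaves no comparison between conditions and no test, and the read depth behind the peak lists is unknown.

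In this pathway an activated receptor recruits the adaptor drk, which brings the exchange factor Sos to the membrane, where it loads Ras85D with GTP. Active Ras85D recruits the kinase Raf, which phosphorylates the MAP kinase kinase Dsor1, which in turn phosphorylates the MAP kinase rl. In the fly, rl phosphorylates aop itself, and phosphorylated aop leaves the nucleus, so the repressor mapped here is itself a substrate of the last kinase in the cascade.

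The 4 strongest of the 8 peaks are shown because they hold the highest signals of the cascade, and 1 of them carried the only ETS site found. ETS proteins bind a GGAA core. An ETS site was taken here as CGGAA preceded by A or C and followed by A or G and then by C or T. The sequences are the plus strand of the dm6 assembly (Release 6 of the genome, from RefSeq), read 5′ to 3′. Capitals mark the ETS site in the strongest Raf peak (chrX:2317541-2317666), and in the peak 5′ of RasGAP1 (chr3L:9855906-9856036) and the next Raf peaks (chrX:2297635-2297781 and chrX:2300649-2300759) they mark each GGAA or its complement TTCC. The Raf peaks are named by their distance from the distal Raf start site.
Raf peak at 22128 bp: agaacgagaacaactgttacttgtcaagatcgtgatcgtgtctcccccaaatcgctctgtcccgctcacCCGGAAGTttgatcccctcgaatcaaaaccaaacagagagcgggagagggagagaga
RasGAP1 peak: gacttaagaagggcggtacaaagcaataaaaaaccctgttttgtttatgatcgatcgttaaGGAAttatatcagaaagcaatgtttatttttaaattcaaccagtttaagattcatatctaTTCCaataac
Raf peak at 2238 bp: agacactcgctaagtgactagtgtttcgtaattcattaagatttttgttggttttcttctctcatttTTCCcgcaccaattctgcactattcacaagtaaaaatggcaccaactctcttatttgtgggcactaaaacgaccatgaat
Raf peak at 5243 bp: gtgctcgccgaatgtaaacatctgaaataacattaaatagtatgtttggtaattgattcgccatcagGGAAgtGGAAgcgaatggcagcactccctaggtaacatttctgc

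The signal of a peak is the authors' own enrichment value, with a scaling that is not stated. Signals are therefore compared within a list only, and between lists a peak is described by its rank. In the thresholded list from both replicates, 3 of the 10 cascade genes had a peak, beside 10.4% of all protein-coding genes (1451 of 13968). The stricter conservative list gave peaks to 3 of the 10 genes, beside 9.22% of all genes. The list of replicate 1 alone also gave 3 of 10, beside 4.35%, and that of replicate 2 alone gave 3 of 10, beside 7.45%. The genes were Raf, RasGAP1 and drk in each of these lists. The lists overlap in their input, and with 10 genes chosen by name the counts are a description without a test. The number of peaks at the cascade genes was 8 in the thresholded list, 6 in the conservative list, 6 in replicate 1 and 5 in replicate 2.

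**Figure D1:**
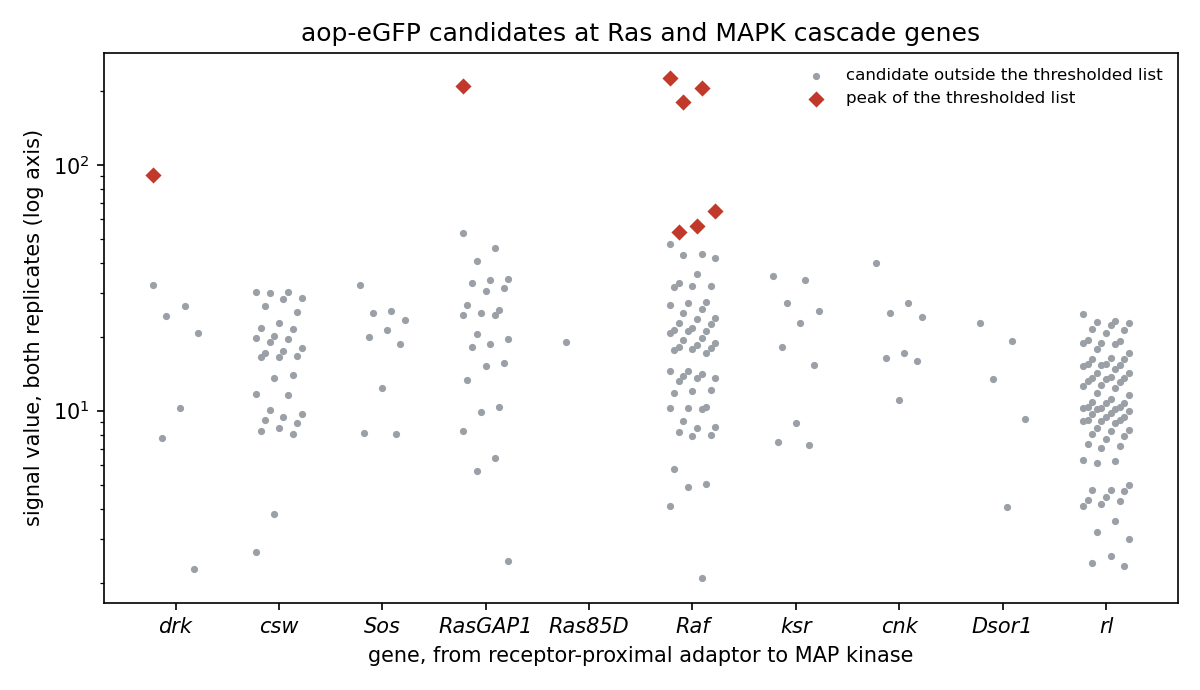
Signal (log axis) of every candidate peak assigned to each of the 10 genes in the list from both replicates, with the genes ordered from the adaptor drk to the MAP kinase rl. Grey dots are candidates below the authors' threshold and red diamonds the 8 thresholded peaks, of which the 4 at RasGAP1 and Raf with the highest signals stand at 179.5 to 225.

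The adaptor drk, an SH2 and SH3 domain protein homologous to mammalian GRB2, had 1 peak inside its own gene. It lay at 2R:13499597-13499852 in an intron, 2568 bp downstream of the nearer of the 2 drk start sites and 3116 bp downstream of the other. Its signal was 91.2, rank 429 of 1725. In replicate 1 the same place had a signal of 38.3, rank 471 of 93043 candidates, and in replicate 2 a signal of 54.3, rank 479 of 113872. The drk peak was thus in the thresholded list of each replicate, at similar ranks among the candidates, and the replicates' summits stood 8 and 2 bp from the combined one. The nearest protein-coding start site, 896 bp away, was not that of drk but that of mars, which overlaps the 5′ end of drk on the map of the locus, so the peak was assigned to drk by its place in the gene body alone. The next candidate of drk had a signal of 32.5, and no candidate above 10.3 lay within 500 bp of a drk start site. In level the drk peak stood next to the peaks nearest dlp (91.3) and Smg5 (90.9).

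The phosphatase csw (corkscrew, the fly SHP2), which acts positively between receptor and Ras, had 34 candidates in or near its 21468 bp body and no thresholded peak. The best was intronic, with a signal of 30.4, rank 11194 of 147076. At that place the signal was 19.6 in replicate 1, rank 3775, and 13.9 in replicate 2, rank 34625. Replicate 2 had its own highest csw candidate elsewhere in the gene, at 20.4, rank 9031. The exchange factor Sos had 10 candidates, the best of them in its coding sequence with a signal of 32.4, rank 8480, and signals of 17.7 in replicate 1 and 14 in replicate 2. Each of these 2 genes therefore had a best candidate near the median over all genes, which was 29.8.

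RasGAP1, a GTPase-activating protein that returns Ras to its inactive form, had a single strong peak 652 bp upstream of its only start site. It was the only member peak assigned by the nearest start site alone, and the only intergenic one. The signal was 209.8, rank 74 of 1725. It was 90.1 in replicate 1, rank 72 of its candidates, and 119 in replicate 2, rank 88, and the peak was in both replicates' thresholded lists. The summit in replicate 2 was at the same base as the combined summit, and that in replicate 1 was 19 bp away. In level it stood next to the peaks nearest gish (211) and CG3726 (209).

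RasGAP1 also had the candidate that came nearest to the threshold without reaching it. This candidate lay 466 bp inside the gene from the start site (3L:9854691-9854946), with a signal of 52.6 and a rank score of 776, where the lowest score of the thresholded list was 830. The weakest peak inside the threshold was a Raf peak with a signal of 53.3 and a score of 934. The signals on either side of the threshold at the cascade genes were thus almost equal, while their scores were not, and no candidate of the 10 genes with a score of 830 or more was outside the list. At the RasGAP1 candidate replicate 1 gave 28.0, rank 992, and replicate 2 gave 22.5, rank 6075. Of the 27 RasGAP1 candidates, the next had signals of 45.9 and 40.8.

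**Figure D2:**
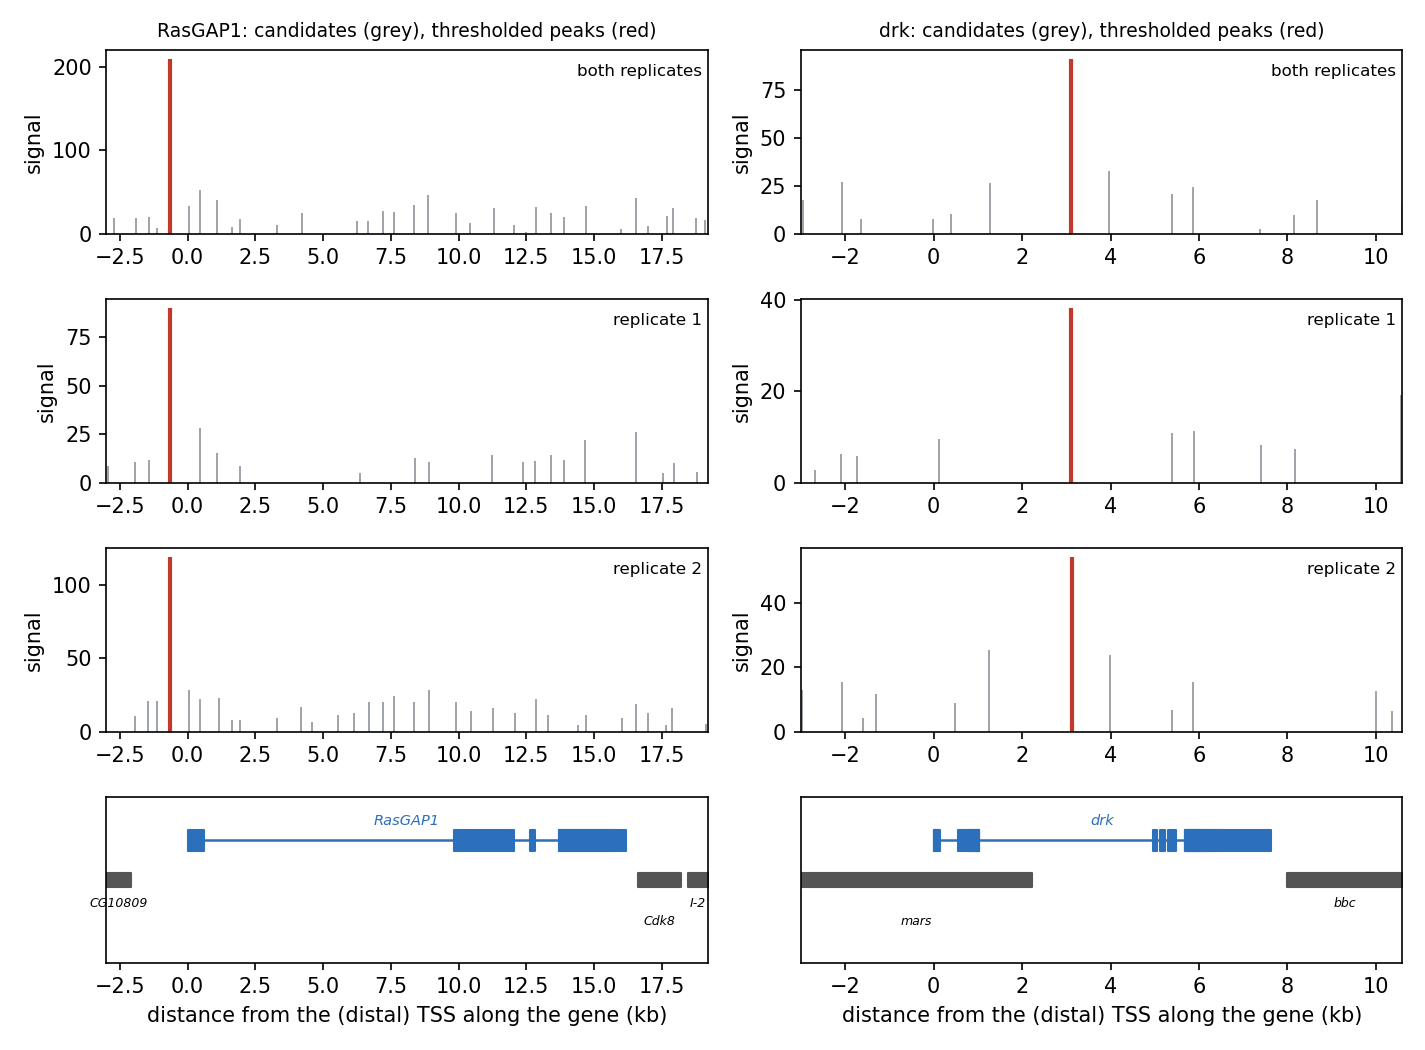
Candidate signal against distance along the gene from the TSS (kb) at RasGAP1 (left) and drk (right), in the list from both replicates and in each replicate's list, over the exons (blue boxes) and neighbouring genes (grey boxes). Grey lines are candidates and red lines thresholded peaks: the RasGAP1 peak stood 652 bp before the TSS in the combined list and in replicate 2 and 633 bp before it in replicate 1, and the drk peak lay in the intron in each list.

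Ras85D, the small GTPase at the centre of the pathway, had the lowest best candidate of the 10 genes in the combined list. The combined list held 1 candidate for its 2507 bp body, intronic, with a signal of 19.1, rank 51371 of 147076, and 10.2% of all genes with a candidate had a lower best signal. At that place replicate 1 gave 9.98, rank 41132, and replicate 2 gave 14.8, rank 29109. Replicate 1 had a higher candidate of its own, 184 bp from the start site, with a signal of 23.8 and rank 1670, which had no counterpart in replicate 2, whose only Ras85D candidate was the one at 14.8.

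By the rule used here Raf, the MAP kinase kinase kinase, had both the most peaks and the strongest peak of the cascade. Its body on X spans 2295466 to 2343870, 48405 bp on the plus strand, and is annotated with a long transcript, Raf-RE, and a short one, Raf-RA, that starts at 2340298. All 6 summits lay in intron 2 of Raf-RE, which is 43.6 kb long, and were spread over 31.8 kb of it. All 6 therefore stood upstream of the start of Raf-RA, by 10769 to 42594 bp, and none lay within 500 bp of either Raf start site. The nearest protein-coding start site was that of Raf for 3 of the peaks and that of a gene nested in the intron for the other 3, CG14050 for 2 and CG2854 for 1.

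The strongest Raf peak, at X:2317541-2317666, had a signal of 225, rank 61 of 1725. It measured 100.3 in replicate 1, rank 60 among that replicate's candidates, and 128 in replicate 2, rank 72. It lay 22128 bp downstream of the Raf-RE start and 22704 bp upstream of the Raf-RA start, and so near the middle of the intron. Its nearest protein-coding start site, 8190 bp away, was that of CG14050, so the peak was assigned to Raf by the gene body alone. In the reference genome its edge was 167 bp from an annotated Tirant transposon of 8527 bp, and no candidate summit lay within that element. Peak lists carry no read counts, so whether reads were placed inside the element is unknown. In level the strongest Raf peak stood next to the peaks nearest CG13921 (228) and norpA (225).

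The other strong Raf peaks lay close to the start of Raf-RE. The peak 2238 bp downstream of it (X:2297635-2297781) had a signal of 206, rank 78, with 87.1 in replicate 1 and 119 in replicate 2. The peak 5243 bp downstream (X:2300649-2300759) had a signal of 179.5, rank 106, with 80.0 in replicate 1 and 101 in replicate 2. Between them stood a weaker peak (X:2299021-2299276) with a signal of 65.0, rank 862. It measured 30.2 in replicate 1, rank 799 of the candidates, and 36.9 in replicate 2, rank 1178. These 3 summits fell within 3005 bp. The stronger pair was in both replicates' thresholded lists, and the weaker peak reached neither although it was in the conservative list. The 3 strongest Raf peaks ranked from 60 to 99 among the candidates of replicate 1 and from 72 to 127 among those of replicate 2.

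The 2 remaining Raf peaks differed between replicates. The one at X:2321892-2322147, with a combined signal of 56.4, lay over the noncoding gene lncRNA:CR34052 near its start. It measured 38.5 in replicate 1, rank 462 and in the thresholded list, but 18.2 in replicate 2, rank 14309. The one at X:2329401-2329656, with a combined signal of 53.3, measured 30.4 in replicate 1, rank 781, and 21.1 in replicate 2, rank 7930, and was in neither replicate's own thresholded list. Neither was in the conservative list. In the combined list the 2 peaks ranked 1165 and 1308 of 1725.

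**Figure D3:**
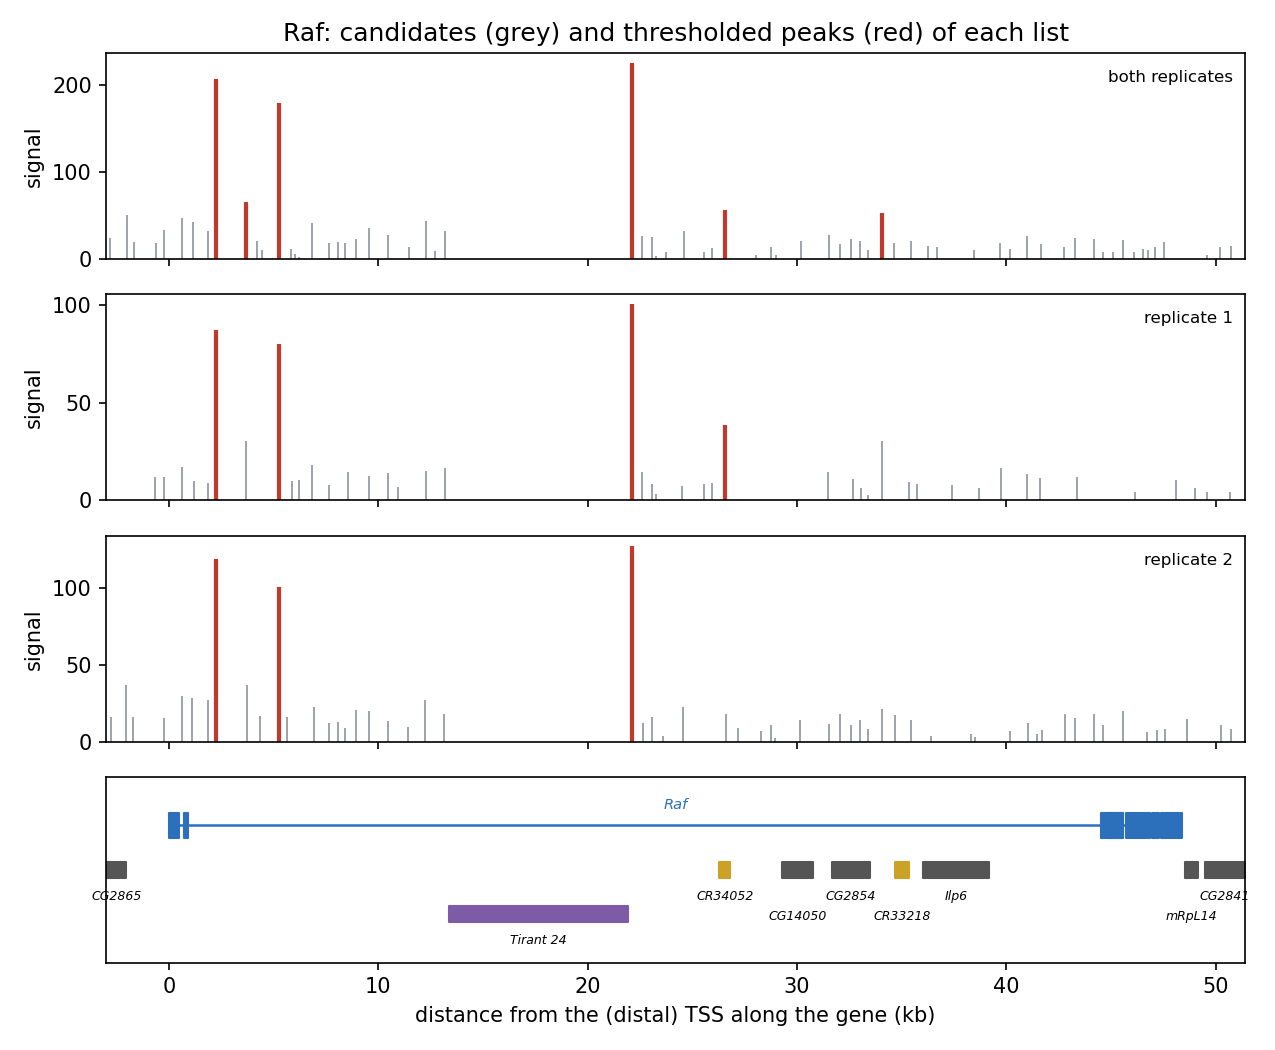
Candidate signal against distance from the distal Raf TSS (kb) in the list from both replicates and in each replicate's list, over the exons of Raf (blue), nested and neighbouring coding genes (grey), noncoding genes (yellow) and the Tirant transposon (purple). Red lines are thresholded peaks: the 3 strongest (179.5 to 225) recur in each list. No candidate fell inside the transposon, where read coverage is unknown.

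A long gene offers more room for peaks by this rule. Of 338 protein-coding genes with a body at least as long as that of Raf, 37.0% had a peak, and 5 genes (1.48%) had at least 6. Over all protein-coding genes 11 (0.0788%) had at least 6. rl is longer than Raf and had no peak. Of the 6 cascade genes with a body under 10 kb, 1 had a peak (16.7%), beside 7.49% of all genes of that size.

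**Figure D4:**
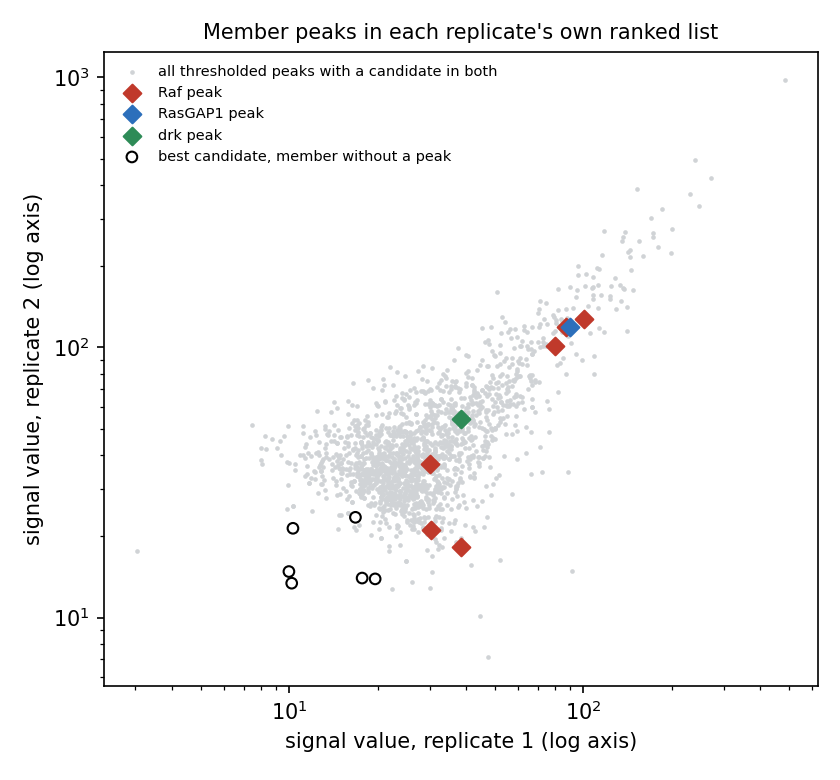
Signal in replicate 2 against signal in replicate 1 (both log axes) for all thresholded peaks with a candidate in each replicate (grey), the member peaks (diamonds) and the best candidates of genes without a peak (open circles; Dsor1 is missing because replicate 2 had no candidate there). The RasGAP1 peak and the 3 strongest Raf peaks lie at 80.0 to 100.3 in replicate 1 and 101 to 128 in replicate 2.

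The scaffolds ksr and cnk, which hold Raf near its partners at the membrane, had no thresholded peak. The best ksr candidate lay in coding sequence with a signal of 35.1, rank 5930. It measured 10.3 in replicate 1, rank 38435, but 21.4 in replicate 2, rank 7482. Replicate 1 had its highest ksr candidate at 17.0, 402 bp from the start site, where the combined list held a candidate of 34.0. The best cnk candidate was the highest among the 7 genes without a peak, with a signal of 39.7, rank 3626 and a score of 533. It also lay in coding sequence, 4130 bp from the nearer cnk start site. It measured 16.8 in replicate 1, rank 7590, and 23.5 in replicate 2, rank 5096.

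The kinases below Raf had low values throughout. Dsor1, the MAP kinase kinase, had 5 candidates, the best of them 22.6, rank 33055. At that place replicate 1 gave 8.01, rank 58804, and replicate 2 had no candidate. Elsewhere in Dsor1 the highest candidate of replicate 1 was 15.2, 546 bp from a start site. The only Dsor1 candidate of replicate 2 was 16.4, 3 bp from a start site. rl, the MAP kinase, had 84 candidates by the rule, the most of the 10 genes, with a median of 10.3 and a best of 24.8. That best candidate was not in rl but 20802 bp from its start site. It measured 10.2 in replicate 1, rank 38940, and 13.4 in replicate 2, rank 37832. Most of the 84 were likewise intergenic and assigned by the nearest start site alone, up to 90580 bp from it. The count and median of rl thus describe the region around the gene more than its body. Of all genes with a candidate, 20.6% had a lower best signal than Dsor1 and 28.4% a lower one than rl.

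Ordered by best signal, the genes ran from Raf (225) and RasGAP1 (209.8) through drk (91.2), cnk (39.7), ksr (35.1), Sos (32.4), csw (30.4), rl (24.8) and Dsor1 (22.6) to Ras85D (19.1). Raf and RasGAP1 ranked 69 and 86 of 13082 genes with a candidate, and drk ranked 433. The 7 genes without a peak had best signals with a median of 30.4, beside 28.6 for all 11631 genes with a candidate and no peak. Within these 7 the order was not the same in the replicates: the highest in replicate 1 was Ras85D at 23.8 and the highest in replicate 2 was cnk at 25.8. The highest candidates of the replicates did not overlap for any of the 7 genes, whereas they overlapped for Raf, RasGAP1 and drk. Over all genes they overlapped for 73.3% of those with a thresholded peak and for 23.1% of those without. By the best candidates of each replicate, Raf stayed above RasGAP1, RasGAP1 above drk, drk above cnk and csw above rl in both. The place of Raf above RasGAP1 rests on the peak assigned to Raf by the gene body alone. The other neighbours in the order (cnk and ksr, ksr and Sos, Sos and csw, rl and Dsor1, Dsor1 and Ras85D) changed places in at least 1 replicate.

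**Figure D5:**
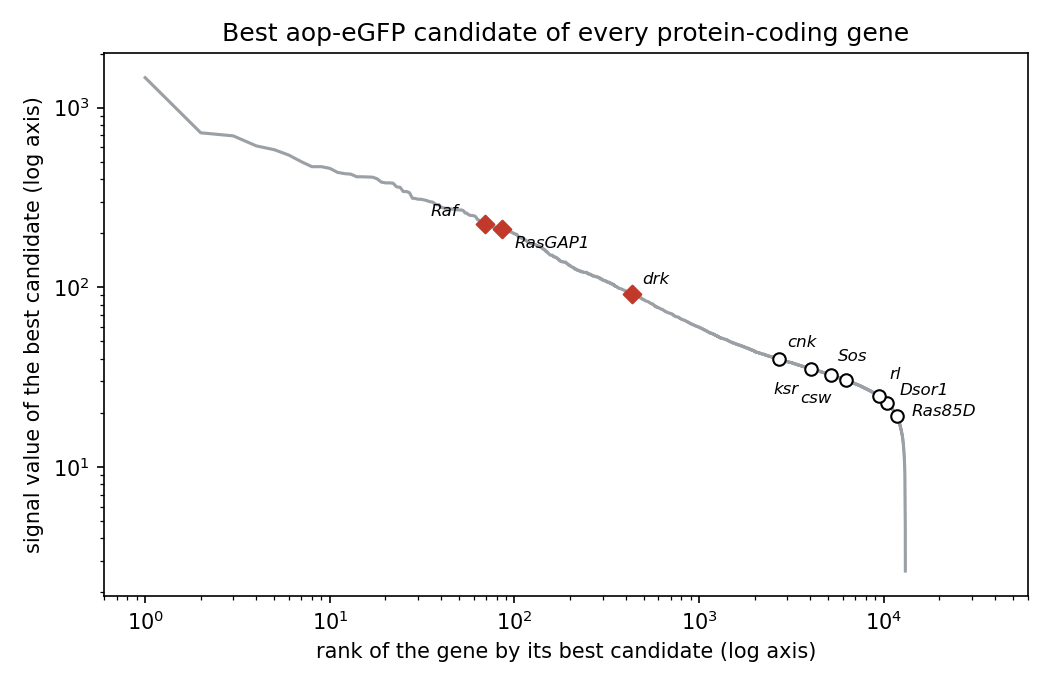
Signal of the best candidate of each of 13082 protein-coding genes (log axis) against the rank of the gene (log axis), with the 10 cascade genes marked. Red diamonds are the genes with a thresholded peak (ranks 69, 86 and 433) and open circles the 7 without, which lie between 19.1 and 39.7.

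By position, 6 of the 8 peaks were intronic (75.0%), 1 was intergenic and 1 was TSS-proximal, that is, with the summit within 500 bp of a start site of any gene. Over all 1692 thresholded peaks on the chromosome arms 31.3% were intronic and 52.2% TSS-proximal. As 6 of the 8 peaks come from 1 intron of Raf, they are not independent counts. The TSS-proximal peak was the one at lncRNA:CR34052, so none of the 8 summits lay within 500 bp of a start site of the cascade genes themselves. Of the best candidates of the 7 genes without a peak, 4 lay in coding sequence (57.1%), a class that made up 1.60% of thresholded peaks and 19.3% of all candidates. The latter shares are not limited to the best candidate of each gene, so they are not a like comparison. No share was taken over the best candidates of all genes without a peak. The class of each gene was that of the combined list. Of Sos, Dsor1, ksr and cnk, only Sos had its best candidate in coding sequence in both replicates. For ksr that held in replicate 2 alone, for cnk in replicate 1 alone and for Dsor1 in neither. The 4 strongest peaks were 111 to 147 bp wide while the others were 256 bp. Narrow peaks were usual at that height: 94 of the 106 thresholded peaks with a signal of at least 179.5 were under 256 bp (88.7%), beside 2.16% of the rest.

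For each summit, both strands of the sequence up to 100 bp on either side were searched for motifs. The ETS site was present at 1 of the 8 peaks (12.5%), beside 7.39% of all thresholded summits and 4.93% of all candidates. It was the strongest Raf peak, where the letters CCGGAAGT at X:2317610-2317617 began 16 bp from the summit. The stricter form ACCGGAAGT was at 0 of 8 peaks, beside 0.827% of thresholded summits and 0.188% of candidates. The short core GGAA, which is part of both forms, was within 100 bp of all 8 summits, beside 79.1% of thresholded summits and 81.9% of candidates. There were 6 cores at the drk summit, 3 at RasGAP1 and 1 to 4 at the Raf summits, with a median of 2.50 over the 8 and of 2.00 over all peaks. In the Raf peak at 2238 bp a core overlapped the summit itself.

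Of the other motifs, the GAGA-factor repeat GAGAGAG was at 1 of the 8 peaks, beside 8.87% of thresholded summits and 2.86% of candidates. It was again the strongest Raf peak, with 2 overlapping copies 65 and 67 bp from the summit, the farther of which runs past the edge of the peak. The DREF and BEAF-32 site TATCGATA was at none of the 8, beside 3.25% of thresholded summits and 0.520% of candidates. The Zelda site CAGGTAG was also at none, beside 1.36% and 1.30%, as was the AP-1 site TGANTCA, beside 4.20% and 3.65%.

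ETS sites were also counted along the gene bodies. RasGAP1 held 10 in 16193 bp (0.618 per kb), csw 8 (0.373 per kb), Raf 8 (0.165 per kb) and rl 8 (0.147 per kb). Sos and cnk held 1 each, and Ras85D, drk, Dsor1 and ksr held none. Of the 8 sites in Raf, 1 was at a thresholded summit. At summits of the ranked list were 2 of the sites in Raf, 3 in RasGAP1, 4 in csw and 1 in rl. No rate over all genes was taken, so whether these densities are high or low is unknown. The RasGAP1 peak lies outside the gene body in which the sites were counted. Of the genes with 8 or more sites, RasGAP1 and Raf had a peak and csw and rl had none, and of the genes with 1 or 0 sites drk alone had one.

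The 4 lists of related genes were, like the members, chosen with earlier results known, so their shares are a description without a test. The regulators and adaptors of Ras had a peak at 7 of 16 genes (43.8%), beside 10.4% of all genes. The highest was at sty (sprouty, an inhibitor of receptor tyrosine kinase signalling), with a signal of 1468 at its strongest of 7 peaks, the highest signal of the whole list. It was followed by the adaptor Shc (270.3), the GTPase Rap1 (92.6), the kinase Src64B (72.5), the adaptor dos (72.0), the Rap1 exchange factor C3G (68.0) and the methyltransferase Icmt (65.9). In the list of replicate 1 a peak was at 3 of the 16, beside 4.35% of all genes, and in that of replicate 2 at 3, beside 7.45%. The Shc peak overlapped a thresholded peak of each replicate, with candidate ranks of 54 and 41, although by the rule neither replicate's own list gave Shc a peak.

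Modulators of Raf, MEK and ERK had a peak at 6 of 18 genes (33.3%), again beside 10.4% of all genes. These were the ERK phosphatase Mkp3 (123), the tyrosine phosphatase Ptp61F (89.6, 1 of 8 peaks in its body), the chaperone Hsp83 (70.4), the scaffold Sur-8 (49.6), 14-3-3epsilon (47.1) and mask (45.5). The strongest Ptp61F peak had ru as the gene of its nearest start site. The parallel JNK and p38 cascades had a peak at 4 of 13 genes (30.8%), Mkk4 (135), Mekk1 (86.8), p38a (74.5) and msn (65.9). Of the receptor tyrosine kinases 1 of 8 (12.5%) had one, InR (129), and Egfr, btl, htl, tor, sev, Alk and Pvr had none. That share is close to the 10.4% of all genes. In the list of replicate 1 the modulators, the JNK and p38 cascades and the receptors had 2, 2 and 1 genes with a peak, beside 4.35% of all genes. In that of replicate 2 they had 4, 4 and 1, beside 7.45%. The median strongest signal of the genes with a peak was 72.5, 60.0, 80.7 and 129 in these 4 lists in turn, 209.8 for the 3 cascade genes and 68.5 for all 1451 genes with a peak.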

How the data were processed

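Peak lists from 2 biological replicates of aop-eGFP ChIP-seq in whole embryos were used: the thresholded, conservative and ranked lists from both replicates and each replicate's own thresholded and ranked list, 7 in all. Per the labels, chromatin was sonicated to 200 to 800 bp and the assembly was dm6. Which aligner and peak caller were used is not given in the sources used here, and depth per sample is unknown, since a peak list carries no read counts. The signal is the enrichment value deposited by the authors for each peak, used to describe and rank peaks within a list. The score is the authors' deposited rank score from the irreproducible discovery rate (IDR) procedure, limited to 1000, and the deposited ranked lists also hold the −log10 of the global IDR. Each replicate's own lists and the combined lists share inputs.

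Python 3.11.15, numpy 2.4.6 and matplotlib 3.10.9 were used. Summits were assigned to genes with Ensembl release 115 models on Release 6, and 33 peaks off the chromosome arms were not assigned. Candidates overlapped when they shared at least 1 bp. Position classes and motif windows were as given beside the results. The assignment and motif search were tested on simulated data. The members and lists were chosen with earlier results of these data known, and the summaries of gene length, peak width, ETS sites in gene bodies and overlap of best candidates were chosen after the values were seen. All 10 members were named, every gene of the 4 lists with a thresholded peak was named with its strongest signal, and the genes of the peaks next above and below each member's strongest peak were named as nearest in level. Alternatives were other assignments, lists, windows and each replicate alone. There is 1 group, so no test was made.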

Additional observations from a re-analysis of the deposited data

How the results depend on the processing

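Raf, RasGAP1 and drk kept a peak in the conservative list, when peaks below the median signal were dropped and in each replicate alone. The count of 3 genes fell to 1, RasGAP1, when a summit had to lie within 1 kb of a start site of the gene, and to 2 with the nearest start site alone (Raf and RasGAP1) or the gene body alone (Raf and drk). The 8 peaks became 4 with the nearest start site alone, 1 within 1 kb, and 5 to 6 with either replicate left out. With the nearest start site alone the strongest Raf peak was that of 206, rank 78, below that of RasGAP1 (209.8, rank 74). Among the candidates these Raf and RasGAP1 peaks ranked 81 and 72 in replicate 1 and 90 and 88 in replicate 2. The share of the list below the strongest peak of each gene was 75.1% for drk, 95.7% for RasGAP1 and 96.5% for Raf. With either replicate left out it was 32.6% to 60.9%, 89.2% to 92.6% and 91.1% to 94.0%. The lists of replicates 1 and 2 are shorter, with 628 and 1142 peaks beside 1725, and the ranks themselves moved little. The drk peak ranked 429 in the combined list and 423 and 446 in replicates 1 and 2. RasGAP1 ranked 74, 68 and 84 in the same order, and Raf 61, 56 and 68. TSS-proximal peaks of the cascade genes rose from 1 to 4 when the window was 1000 bp. The 7 Ras regulators and adaptors with a peak became 3 to 3 with either replicate left out, the 6 modulators 2 to 4, and the 4 genes of the JNK and p38 cascades 2 to 4. The cause of these changes in the counts was not tested. The other alternatives moved no count by over 1.5 times. No paired analysis was possible because there is 1 group. Unknown depth and the lack of an analysed control limit all values, and a peak in a gene does not show that the gene is regulated.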
